A study of Homo sapiens with 12 samples.

Results

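Collagens, laminins and integrins are the chains of the extracellular matrix and of the receptors that hold cells to it, and their transcripts were followed here in SW1736, an established cell line of anaplastic thyroid cancer. Members were taken by symbol, as every collagen chain, laminin chain, integrin alpha chain or integrin beta chain with 120 or more counts summed over the 12 libraries. Of 82 matching symbols among the 56832 in the count tables, 31 met that minimum: 10 of 44 collagens, 7 of 12 laminins, 8 of 18 integrin alpha chains and 6 of 8 integrin beta chains. The minimum lay between COL6A1 with 221 counts and ITGA10 with 104, followed by COL5A2 with 83. Of the 51 symbols left out, 18 had 0 counts in every library, 27 had 1 to 20 counts in all and 6 had more than 20. All 31 members also passed the filter on low counts in each fit.

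Per the labels, all cells were SW1736 with either the vector pCDH-TRB, for stable expression of thyroid hormone receptor beta, or the control vector pCDH-EV, called TRB and EV cells below. All were starved of hormone for 24 h in charcoal-stripped serum and then received 10 nM triiodothyronine (T3), the active thyroid hormone, or its sodium hydroxide vehicle for 24 h. The 4 combinations of vector and treatment have 3 libraries each of total RNA. The labels do not say whether the libraries of a group came from separate cultures, nor whether a vector's cells are 1 clone, so p-values measure the spread between these libraries, which may be technical.

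Collagens form trimers that build fibrils, sheets or anchoring structures, and laminins are trimers of an alpha, a beta and a gamma chain that form the scaffold of basement membranes. Integrins pair an alpha with a beta chain at the cell surface and bind these proteins, and the pair of ITGA6 and ITGB4 anchors epithelial cells to laminin at hemidesmosomes. Thyroid follicular cells rest on such a basement membrane. Liganded thyroid hormone receptors bind DNA as transcription factors, with AGGTCA as the core consensus of their sites.

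Promoter letters are shown for 4 members that passed the test for T3 in TRB cells in every fit run, because the receptor acts on DNA. Windows of 250 bases before the RefSeq gene start (GRCh38.p14) were found for 23 of the 31 members. AGGTCA, on either strand, occurred in 1 of the 23 windows, that of COL7A1, and in 12.1% of 35116 windows of all genes. A direct repeat of AGGTCA with 4 bases between occurred in 0 of the 23, and so did TGACCT and AGGTCA with 6 bases between, against 0.0142% and 0.00854% of all windows. GGGCGG, a GC box searched after the letters had been seen, occurred on either strand in 15 of 23 windows (65.2%) and in 42.6% of all. The windows below are written 5′ to 3′ on the strand of the gene, with GGGCGG or its reverse complement in capitals. They are chr1:183023170-183023419 on the plus strand for LAMC1, chr18:23872770-23873019 on the plus strand for LAMA3, chr9:114155287-114155536 on the plus strand for COL27A1 and chr10:104085881-104086130 on the minus strand for COL17A1. The RefSeq start used for LAMA3 lies inside the longer gene that GENCODE 29 annotates.
LAMC1: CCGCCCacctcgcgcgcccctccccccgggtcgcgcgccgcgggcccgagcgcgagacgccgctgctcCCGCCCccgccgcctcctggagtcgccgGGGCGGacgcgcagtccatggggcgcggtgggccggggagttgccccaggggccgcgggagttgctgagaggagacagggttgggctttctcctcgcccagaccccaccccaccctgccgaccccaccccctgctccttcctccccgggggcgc
LAMA3: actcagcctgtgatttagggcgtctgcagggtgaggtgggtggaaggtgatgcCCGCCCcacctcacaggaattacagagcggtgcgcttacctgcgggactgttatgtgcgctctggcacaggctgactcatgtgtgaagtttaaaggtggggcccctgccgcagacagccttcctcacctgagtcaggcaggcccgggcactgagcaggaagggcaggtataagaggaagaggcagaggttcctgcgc
COL27A1: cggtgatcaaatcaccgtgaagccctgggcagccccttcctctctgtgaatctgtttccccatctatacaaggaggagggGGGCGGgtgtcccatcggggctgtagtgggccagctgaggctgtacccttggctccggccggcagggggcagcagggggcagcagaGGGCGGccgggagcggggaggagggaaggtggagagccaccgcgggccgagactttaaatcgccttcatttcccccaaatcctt
COL17A1: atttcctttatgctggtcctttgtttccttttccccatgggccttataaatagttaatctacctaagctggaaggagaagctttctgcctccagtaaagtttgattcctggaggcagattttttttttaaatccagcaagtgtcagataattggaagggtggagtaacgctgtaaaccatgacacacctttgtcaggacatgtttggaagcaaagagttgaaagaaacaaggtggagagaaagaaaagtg
The windows of LAMC1 and LAMA3, which rose with T3, held 3 and 1 matches to GGGCGG. Those of COL27A1 and COL17A1, which fell, held 2 and 0, and none of the 4 held AGGTCA.

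Counts within genes totalled 3819306 to 13086717 per library, of which the members took 0.409% to 0.632%. THRB, the gene of the supplied receptor, stood at 13.0 to 15.6 CPM (counts relative to library size, scaled by the trimmed mean of M-values) in EV cells with vehicle and 12.3 to 18.2 in EV cells with T3. It stood at 79.6 to 80.2 in TRB cells with vehicle and 190 to 321 with T3, so every TRB library lay above every EV library. Epithelial markers were abundant (KRT8 385 to 2203 CPM, EPCAM 316 to 1098, CDH1 134 to 241), and their 6 genes summed to 3483 to 3834 CPM in EV cells with vehicle, 3557 to 5011 in EV cells with T3, 3804 to 3881 in TRB cells with vehicle and 2026 to 3886 in TRB cells with T3. Of the thyroid markers FOXE1 and TSHR had 0 counts and PAX8 stood at 0.718 to 6.96 CPM. Those 6 genes summed to 6.94 to 8.62, 6.47 to 7.32, 8.04 to 10.9 and 1.08 to 5.24 CPM in the same order of groups. The 4 endothelial and the 6 fibroblast markers each summed to at most 0.335 CPM in any library, with CDH5, KDR and PDGFRA at 0. PTPRC reached 0.217 CPM, CD3E was at 0, and of the 6 leukocyte markers LYZ alone was abundant, at 777 to 1585 CPM. The 6 leukocyte markers summed to 1265 to 1462, 1128 to 1404, 802 to 981 and 786 to 1585 CPM in the same order of groups, nearly all of it LYZ, and CD14 stood at 0.406, 0.344 and 0.419 CPM in TRB cells with vehicle and 9.21, 0.1795 and 9.72 with T3. In TRB cells with T3 the epithelial sum was 3617 and 3886 CPM in replicates 1 and 3 and 2026 in replicate 2, so its low value was that of 1 library, while the thyroid sum lay below every other group in all 3. The part of these markers in the results below was not tested.

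TRB with T3 replicate 2 stood apart from the other libraries, and it touched the members strongly. The members are rich in G and C, with a median GC content of 58.9% in their longest transcript against 48.3% over all tested genes. All 17 members with a GC content of 55% or more were lower in replicate 2 than the mean of replicates 1 and 3, as were 5 of the other 14. By more than 2-fold, 14 members were lower and 6 higher. LAMA5, a chain of the laminins of mature basement membranes, stood at 671, 27.5 and 713 CPM in replicates 1 to 3, and ITGB1, the beta chain shared by many integrins, at 447, 1356 and 457 CPM. Across the 31 members GC content and the deviation of replicate 2 were correlated at -0.82 (Spearman), and -0.88 across 12130 genes of the same 3 libraries. EV with T3 replicates 2 and 3 deviated from their group along GC content in opposite directions, with correlations of -0.83 and 0.80 across those genes. Libraries with vehicle deviated as well, from -0.67 to 0.46 in EV cells (replicates 2 and 1) and from -0.27 to 0.37 in TRB cells. Each comparison of the members is therefore given with all 12 libraries and without TRB with T3 replicate 2. Counts from fits with an offset for each library's GC trend follow.

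**Figure D1:**
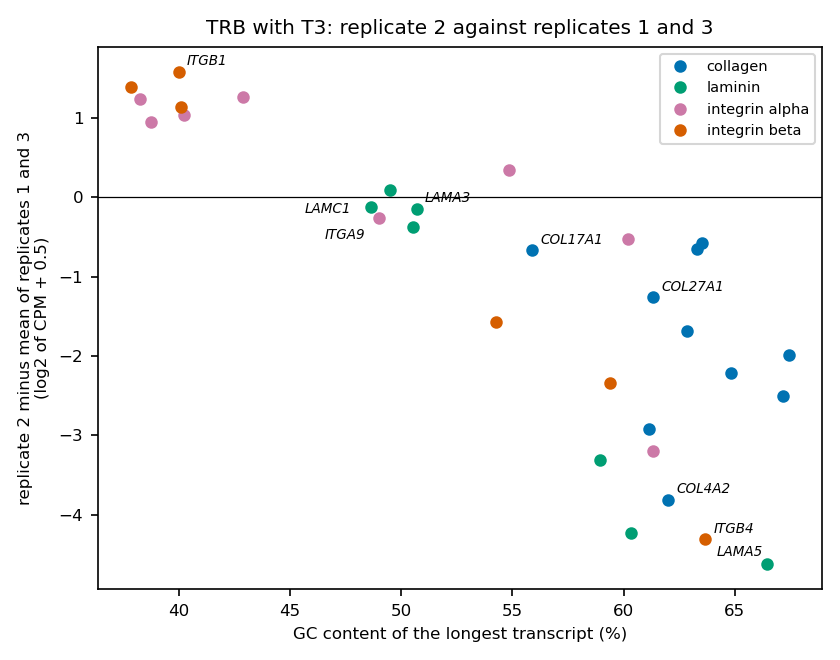
Each point is 1 of the 31 members, coloured by family, with the GC content of its longest transcript in percent on the horizontal axis. The vertical axis is the log2(CPM + 0.5) of TRB with T3 replicate 2 minus the mean of replicates 1 and 3, and all 17 members at or above 55% GC lie below 0.

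In EV cells with vehicle, the highest levels per length among the members were those of integrin chains and the lowest those of collagens, but the families overlapped. Per kb of exon, ITGB4 was the highest member at 211 ± 24.7 CPM per kb (SD, n = 3), followed by ITGB1 at 131 ± 8.76 and ITGA6 at 101 ± 4.93. The ranges of these 3 did not overlap. ITGA2, a collagen receptor chain, stood at 42.0 ± 2.49 CPM per kb, ITGA3, a laminin receptor chain, at 36.4 ± 3.13, ITGB5 at 32.0 ± 1.62 and ITGB6 at 29.5 ± 3.14. The ranges of neighbours among these 4 overlapped. Among laminins, LAMB3 (24.9 ± 2.28 CPM per kb), LAMB1 (23.4 ± 1.26) and LAMA5 (22.5 ± 2.56) had overlapping ranges, LAMC1 (13.2 ± 1.00) lay below them, and LAMB2 (7.37 ± 0.262) and LAMA3 (6.38 ± 0.440) were lower still. The most abundant collagens were COL17A1 at 14.3 ± 0.798, COL9A3 at 12.1 ± 2.37 and COL27A1 at 9.68 ± 0.473 CPM per kb. The other 7 collagens reached at most the 1.89 ± 0.178 CPM per kb of COL1A1, and COL7A1 was the lowest member at 0.195 ± 0.0526. The integrin chains ITGAE (1.63 CPM per kb), ITGB7 (1.15), ITGA7 (0.524) and ITGA1 (0.467) also had means below that of COL1A1.

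Several partners of measured chains were at or near 0. COL1A1 had counts in every library, while COL1A2, the chain with which it forms type I collagen, had 0 counts in all 12. COL6A2 also had 0 counts and COL6A3 32, and COL4A1 had 13 counts in all against 947 for COL4A2, its partner in basement membrane collagen IV. ITGB3 had 0 counts and ITGA5, the fibronectin receptor chain, 3. Of the leukocyte chains ITGAL had 1 count, ITGAM 4, ITGAX 18 and ITGB2 15. For one library a count of 0 allows up to 3 counts, or 0.225 to 0.758 CPM at these depths, which covers counting error only.

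**Figure D2:**
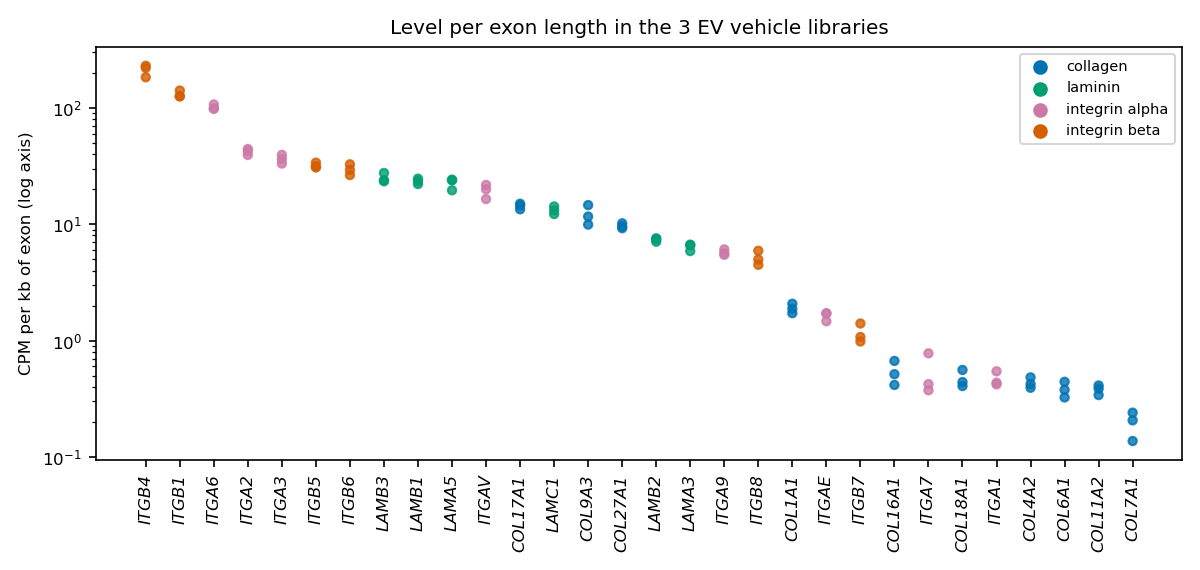
Levels of 30 members in the 3 EV vehicle libraries (1 point per library), in CPM per kb of exon on a log axis, ordered by their mean. ITGB4, ITGB1 and ITGA6 lead, the laminins lie in the middle, and 7 of the 10 collagens lie at or below the level of COL1A1.

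T3 against vehicle in TRB cells shows how matrix and integrin transcripts answered hormone with the receptor supplied. LAMC1 and LAMA3, a gamma and an alpha chain of laminin, and ITGA9, an integrin chain that binds tenascin, rose, while 4 of the 10 collagens and ITGB4 fell. In edgeR's quasi-likelihood test at an adjusted p of 0.05, 8 of 31 members passed, 3 higher and 5 lower, against 14.7% of 14431 genes (8.54% higher, 6.2% lower). Without replicate 2, 16 of 31 passed, 6 higher and 10 lower, against 33.3% of 14825 genes (18.1% higher, 15.2% lower). The median log2 fold change over the members was -0.49 and -0.22 in the 2 fits, against 0.01 and -0.01 over all genes. In these bulk libraries, fewer cells with a transcript and less of it per cell cannot be told apart.

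**Figure D3:**
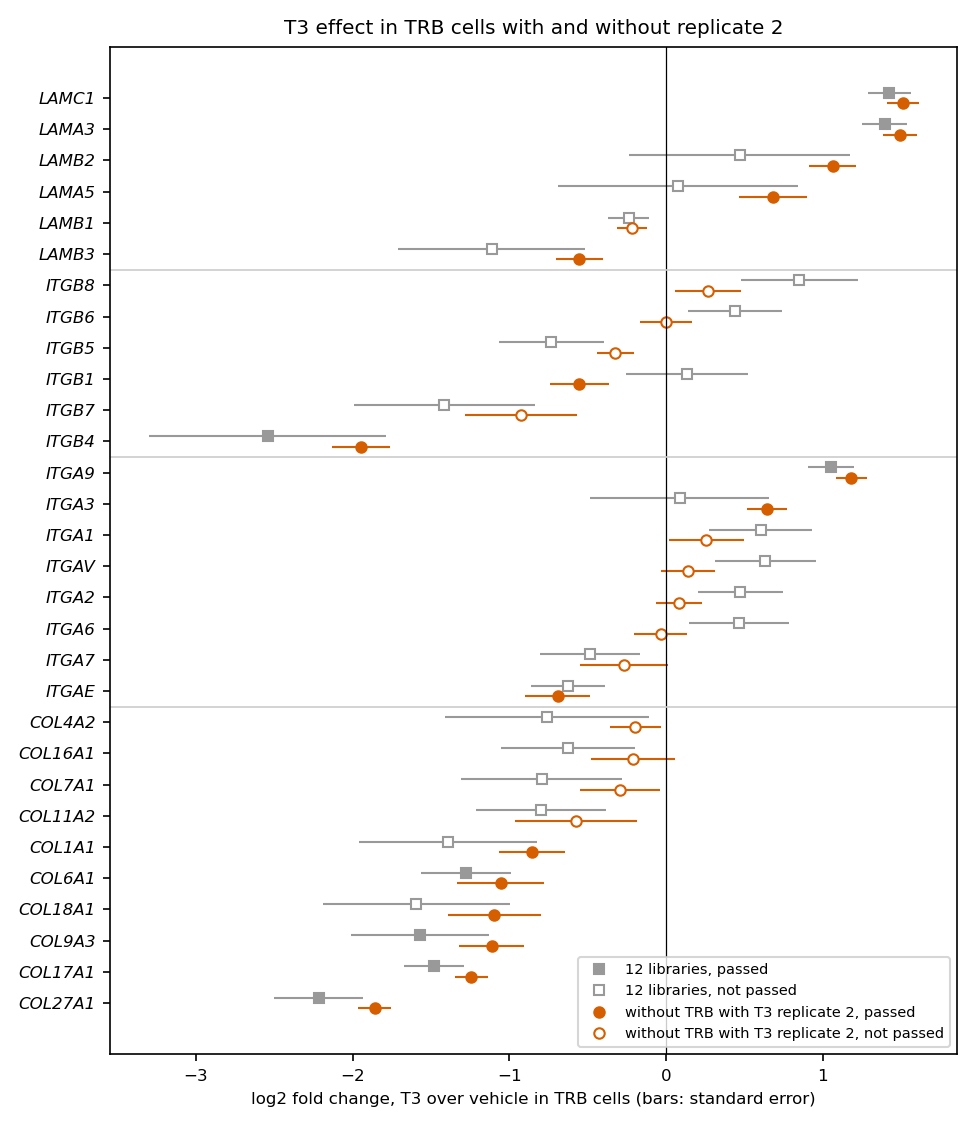
Log2 fold change of 30 members for T3 over vehicle in TRB cells, with its standard error, in the fit of 12 libraries (squares) and without TRB with T3 replicate 2 (circles), with filled symbols where the test passed. Members are grouped by family, and all 10 collagens lie below 0 in both fits.

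Of the 7 laminins 2 rose with 12 libraries, and 4 rose and 1 fell without replicate 2, led by LAMC1 and LAMA3. LAMC1 (chr1:183023460-183145592), the gamma chain of most laminins, stood at 111, 105 and 114 CPM in TRB cells with vehicle and at 317, 279 and 289 with T3. All T3 libraries, replicate 2 among them, lay above every vehicle library, and the log2 fold change was 1.42 (SE 0.137, edgeR adjusted p = 7.42e-05). LAMA3 (chr18:23689443-23956222), the alpha chain of the laminin that epidermal cells attach to, stood at 116, 104 and 104 CPM with vehicle and 311, 266 and 278 with T3, a log2 fold change of 1.40 (SE 0.144, edgeR adjusted p = 0.000118). These groups did not overlap either, and both genes passed without replicate 2, at 1.51 and 1.49. LAMC1 and LAMA3, with GC contents of 48.7% and 50.7%, were among the members that replicate 2 shifted least.

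LAMA5 and LAMB2, the beta chain of laminins in mature basement membranes, showed how much turned on that library. LAMB2 stood at 67.3, 62.0 and 59.9 CPM with vehicle and at 119, 6.28 and 136 with T3. Its log2 fold change was 0.47 (SE 0.707, edgeR adjusted p = 0.665) with all libraries and 1.06 (SE 0.150, adjusted p = 0.000145) without replicate 2. LAMA5 stood at 438, 449 and 449 CPM with vehicle against 671, 27.5 and 713 with T3, and passed only without replicate 2, at 0.68 (SE 0.217, edgeR adjusted p = 0.0286) against 0.08 with it. In each gene replicates 1 and 3 lay above every vehicle library and replicate 2 far below. LAMB3, the beta partner of LAMA3, went the other way: 155, 155 and 155 CPM with vehicle, 97.9, 9.87 and 107 with T3, and a log2 fold change of -0.55 (SE 0.152, edgeR adjusted p = 0.0137) without replicate 2 and -1.11 (adjusted p = 0.23) with it. LAMB1 had log2 fold changes of -0.24 and -0.22 in the 2 fits and did not pass.

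All 10 collagens had negative log2 fold changes with 12 libraries (median -1.33), without replicate 2 (-0.96) and with GC offsets (-0.81 with 12 libraries, -0.98 with 11). Of the 10, 4 fell with all libraries and 6 without replicate 2. COL27A1 (chr9:114155560-114312511), a fibrillar collagen of cartilage, stood at 175, 166 and 168 CPM with vehicle and at 46.6, 18.7 and 43.9 with T3. The highest T3 library lay far below the lowest vehicle library, and the log2 fold change was -2.22 (SE 0.286, edgeR adjusted p = 0.000484). COL17A1 (chr10:104031286-104085957), the transmembrane collagen of hemidesmosomes, stood at 118, 115 and 107 CPM with vehicle and 45.2, 29.1 and 47.6 with T3, a log2 fold change of -1.48 (SE 0.194, edgeR adjusted p = 0.000533). Without replicate 2 these values were -1.86 and -1.24, and both genes passed in that fit.

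COL9A3, a chain of the collagen that coats fibrils, stood at 72.01, 75.8 and 73.1 CPM with vehicle and 29.6, 7.90 and 36.5 with T3, a log2 fold change of -1.57 (SE 0.439, edgeR adjusted p = 0.036). Its groups did not overlap, and without replicate 2 it was -1.11 (edgeR adjusted p = 0.00126). Its call was lost when any 1 of 10 libraries was left out, namely each one except TRB with T3 replicates 2 and 3, with adjusted p from 0.0502 to 0.107. COL6A1, a chain of microfibrillar collagen VI, stood at 2.43, 3.53 and 2.51 CPM with vehicle and 1.27, 0.718 and 1.37 with T3, a log2 fold change of -1.28 (SE 0.286, edgeR adjusted p = 0.0124). Without TRB with vehicle replicate 2 the adjusted p was 0.0737, with GC offsets on 12 libraries 0.0772, and in the compared groups alone 0.117. The compared groups alone also gave adjusted p of 0.215 for COL9A3.

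In edgeR without offsets, COL1A1 and COL18A1, the latter the source of endostatin, passed only without replicate 2. COL1A1 stood at 27.7, 26.9 and 25.1 CPM with vehicle and at 13.6, 1.44 and 14.8 with T3, a log2 fold change of -0.86 (SE 0.210, edgeR adjusted p = 0.00704) without replicate 2 and -1.39 (adjusted p = 0.13) with it. COL18A1 stood at 5.48, 4.82 and 5.11 CPM with vehicle and 2.10, 0 and 2.62 with T3, and its value without replicate 2 was -1.10 (SE 0.298, edgeR adjusted p = 0.013). With all 12 libraries both passed with GC offsets, COL1A1 at -1.02 and COL18A1 at -1.07, and DESeq2 called COL18A1 (adjusted p = 0.0215). Every T3 library of both genes lay below the vehicle libraries. COL18A1 shares 16.4% of its exon bases with SLC19A1 on the opposite strand, and whether counting used strand is not given in the sources used here, so its reads are uncertain. The other 4 collagens (COL4A2, COL7A1, COL11A2, COL16A1) did not pass in either fit, with log2 fold changes of -0.20 to -0.57 without replicate 2.

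Among the integrin beta chains ITGB4 (chr17:75721328-75757818) changed most. It stood at 1836, 1897 and 1786 CPM in TRB cells with vehicle and at 442, 22.8 and 481 with T3, so that all T3 libraries lay below the vehicle libraries and replicate 2 was far lower than its 2 partners. The log2 fold change was -2.54 (SE 0.758, edgeR adjusted p = 0.0467) with all libraries and -1.95 (SE 0.182, adjusted p = 4.28e-06) without replicate 2. Leaving out any 1 of the 11 other libraries raised the adjusted p to between 0.0551 and 0.118, and the compared groups alone gave 0.257. Per kb of exon, ITGB4 stood above its partner ITGA6 in every library of the other 3 groups, with ratios of 1.31 to 3.67, and below it in TRB cells with T3, with ratios of 0.749, 0.0167 and 0.875. ITGB4 and ITGA6 differ in GC content (63.7% and 42.9%). Within EV cells with T3 the ratio was 1.31 in replicate 2 and 3.67 in replicate 3, which deviated along GC content in opposite directions. The part of GC content in these ratios was not tested. ITGA6 itself had log2 fold changes of 0.47 and -0.04 in the 2 fits and did not pass.

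ITGB1 stood at 671, 718 and 669 CPM with vehicle and 447, 1356 and 457 with T3. Its direction turned on replicate 2: the log2 fold change was 0.13 (SE 0.387, edgeR adjusted p = 0.831) with all libraries and -0.55 (SE 0.188, adjusted p = 0.0383) without replicate 2. With GC offsets it was -0.63 (adjusted p = 0.000433) with all 12 and -0.56 (1.47e-05) with 11. ITGB5, ITGB6, ITGB7 and ITGB8 did not pass in either fit without offsets. ITGB7 shares 42.1% of its exon bases with ZNF740 on the opposite strand and ITGB6 20.6% with AC092153.1, which leaves their counts uncertain.

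Of the alpha chains, ITGA9 (chr3:37452115-37823514), the partner of ITGB1 in a tenascin receptor, stood at 47.7, 47.7 and 48.4 CPM with vehicle and at 103, 87.8 and 107 with T3. No library of one group reached the other, and the log2 fold change was 1.05 (SE 0.145, edgeR adjusted p = 0.000741), or 1.18 without replicate 2. A fit of the compared groups alone gave an adjusted p of 0.051. ITGA3, a laminin receptor chain, stood at 379, 375 and 365 CPM with vehicle and 541, 60.7 and 584 with T3, and rose only without replicate 2, at 0.64 (SE 0.127, edgeR adjusted p = 0.00177) against 0.09 with it. ITGAE, the alpha chain by which some T cells bind E-cadherin, stood at 17.6, 13.7 and 15.2 CPM with vehicle and 9.81, 11.8 and 8.60 with T3, and fell only without replicate 2, by 0.69 on the log2 scale (edgeR adjusted p = 0.0196). It shares 7.59% of its exon bases with other genes on the opposite strand, HASPIN among them. The collagen receptor chains ITGA1 and ITGA2, the RGD-binding chain ITGAV and the laminin receptor chains ITGA6 and ITGA7 did not pass in either fit.

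**Figure D4:**
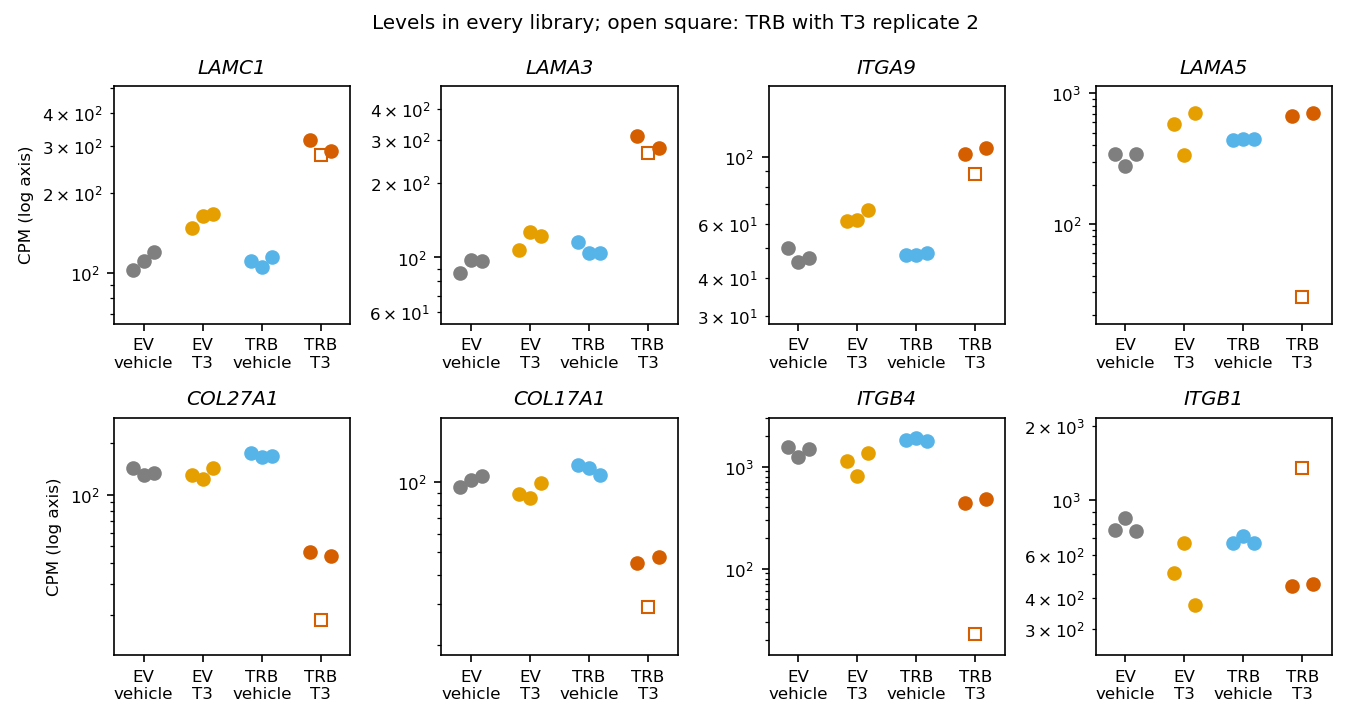
CPM on a log axis of 8 members in the 12 libraries (1 symbol per library), by vector and treatment, with TRB with T3 replicate 2 as an open square. LAMC1, LAMA3 and ITGA9 are higher, and COL27A1, COL17A1 and ITGB4 lower, in all 3 TRB libraries with T3 than in any with vehicle, while LAMA5 and ITGB1 are split by replicate 2.

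With GC offsets, 14 of 31 members passed in this comparison with 12 libraries (3 higher, 11 lower), against 35.7% of 12130 genes, and 21 without replicate 2 (8 higher, 13 lower), against 55% of 12306 genes. Offsets on 12 libraries moved the median log2 fold change of all genes from 0.01 to -0.14, against which the collagens' median of -0.81 is to be read. The 3 that rose with offsets and 12 libraries were LAMC1, LAMA3 and ITGA9. COL6A1 did not pass there, and the other 7 members that passed without offsets did. The 7 gained were ITGB7 (-1.11), COL18A1 (-1.07), COL1A1 (-1.02), LAMB3 (-0.93), ITGB1 (-0.63), ITGB5 (-0.62) and LAMB1 (-0.32).

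T3 against vehicle was also compared in EV cells, which carry no receptor from the vector. With 12 libraries 0 of 31 members passed in edgeR, against 0.229% of genes. At an unadjusted p under 0.05 in edgeR there were 3, against 881 of 14431 genes. DESeq2 called 2, LAMC1 and ITGA9, and its share over all genes is not given here. Without TRB with T3 replicate 2, which is no library of this comparison but enters the shared estimate of spread, 5 of 31 passed, all higher, against 7.33% of genes (3.76% higher). LAMC1 stood at 103, 111 and 119.6 CPM with vehicle and at 148, 164 and 167 with T3, and rose in that fit (log2 fold change 0.52, SE 0.0929, edgeR adjusted p = 0.00662). ITGA9 stood at 50.3, 45.2 and 46.5 CPM with vehicle and 61.5, 61.9 and 66.9 with T3, an increase of 0.43 (SE 0.0933, edgeR adjusted p = 0.0202). In both genes the libraries of the 2 treatments did not overlap.

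ITGB6, the beta chain that with ITGAV binds latent TGF-beta, stood at 124, 153 and 137 CPM in EV cells with vehicle and at 220, 256 and 167 with T3, again without overlap. Its log2 fold change in EV cells was 0.63 with 12 libraries (edgeR adjusted p = 0.847) and 0.64 (SE 0.147, adjusted p = 0.025) without replicate 2. With GC offsets on 12 libraries it was 0.92 (adjusted p = 0.00554), the only member to pass there. LAMB2 (48.5, 51.1 and 52.0 CPM against 89.3, 63.9 and 102) and LAMA5 (345, 280 and 341 CPM against 584, 334 and 711) had log2 fold changes of 0.74 and 0.75, with edgeR adjusted p of 0.01 and 0.043 without replicate 2. EV with T3 replicate 2 of LAMA5 lay among the vehicle libraries. With GC offsets on 11 libraries 13 members passed, 6 higher and 7 lower, against 17.7% of genes, among them ITGB4 at -0.67 and COL17A1 at -0.35. The collagens as a family had a median log2 fold change of 0.01 with 12 libraries and -0.01 without replicate 2, with 5 of 10 positive in each, and of -0.27 with 3 of 10 positive under GC offsets.

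The vector without hormone was compared between TRB and EV cells that both received vehicle. In edgeR 0 of 31 members passed in either fit, against 0.0208% of genes with 12 libraries and 0.0742% without TRB with T3 replicate 2, and DESeq2 called 0. At an unadjusted p under 0.05 in edgeR there were 0 and 14 members, against 213 of 14431 and 1838 of 14825 genes. All 10 collagens had positive log2 fold changes without offsets, with medians of 0.34 and 0.35, while with GC offsets 9 and 8 were positive and the medians were 0.08 and 0.09. COL27A1 stood at 142, 129 and 134 CPM in EV cells and 175, 166 and 168 in TRB cells, a log2 fold change of 0.34 (SE 0.0874, edgeR adjusted p = 0.26) without replicate 2, and ITGB6 at 124, 153 and 137 against 85.2, 97.6 and 99.5 CPM, at -0.54 (adjusted p = 0.293). Neither gene overlapped between the vectors. The 6 vehicle libraries alone, fitted with their own spread, gave 10 members, 8 higher and 2 lower, against 11.2% of 14008 genes. GC offsets on 11 libraries gave 2 members, ITGB6 at -0.31 among them, against 1.06% of 12306 genes.

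With T3 in both, TRB and EV cells differed in 5 of 31 members in edgeR, 3 higher and 2 lower, against 6.68% of genes (4.13% higher, 2.55% lower). LAMA3 (1.26, SE 0.144, adjusted p = 0.000608), LAMC1 (0.89, SE 0.136, adjusted p = 0.00322) and ITGA9 (0.65, SE 0.145, adjusted p = 0.0235) were higher in TRB cells on the log2 scale. COL27A1 (-1.85, SE 0.283, edgeR adjusted p = 0.00322) and COL17A1 (-1.16, SE 0.193, adjusted p = 0.00519) were lower. LAMA3 stood at 107, 127 and 123 CPM in EV cells with T3 and COL27A1 at 129, 124 and 143, and neither gene's range met that of TRB cells with T3. Without TRB with T3 replicate 2, 11 members passed, 6 higher and 5 lower, against 19.7% of genes (11.8% higher, 7.9% lower). Those added included LAMB2 (0.66), ITGA3 (0.53), ITGB4 (-1.19), ITGB6 (-1.18) and COL18A1 (-1.23).

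In this comparison ITGA9 lost its call when any library other than TRB with vehicle replicate 1 or TRB with T3 replicate 2 was left out, with edgeR adjusted p from 0.0514 to 0.129. A fit of these 6 libraries alone called 0 members, against 0.241% of 13292 genes. In that fit 5 members had an unadjusted edgeR p under 0.05, for which the share over all genes is not given here. With GC offsets 11 members passed, 4 higher and 7 lower, against 20.2% of genes, and 18 on 11 libraries, 8 higher and 10 lower, against 39.9%. Those gained with 12 libraries included ITGB4 (-1.51), ITGB6 (-1.44), COL18A1 (-1.22), COL1A1 (-0.77) and ITGA2 (-0.61). This comparison shares its TRB libraries with T3 with the one above.

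The interaction term of vector and T3 tested for a difference in hormone response between TRB and EV cells. In edgeR 4 of 31 members passed with 12 libraries, 2 higher and 2 lower, against 2.59% of genes (1.77% higher, 0.825% lower). The log2 response was larger in TRB cells for LAMA3 by 1.05 (SE 0.201, adjusted p = 0.0223) and for LAMC1 by 0.90 (SE 0.191, adjusted p = 0.0351), and more negative for COL27A1 (-2.18, SE 0.392, edgeR adjusted p = 0.0173) and COL17A1 (-1.33, SE 0.270, adjusted p = 0.0281). COL27A1 stood at 129, 124 and 143 CPM with T3 in EV cells against 142, 129 and 134 with vehicle, and COL17A1 at 89.3, 85.5 and 99.0 against 94.9, 102 and 106, and both pairs overlapped. Without replicate 2, 10 members passed, 3 higher and 7 lower, against 15.2% of genes (8.55% higher, 6.68% lower). The 6 added were ITGA9 (0.76), ITGB4 (-1.57), COL18A1 (-1.58), COL1A1 (-1.19), ITGAE (-1.08) and COL9A3 (-0.94). With GC offsets 8 passed, 2 higher and 6 lower, against 11.4% of genes, the 4 gained being ITGB4 (-1.64), COL18A1 (-1.23), ITGB6 (-1.12) and COL1A1 (-1.08). With offsets on 11 libraries 18 passed, 7 higher and 11 lower, against 33.9%.

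The count with all libraries was fragile. It was 0 when any library of EV with vehicle, any of TRB with vehicle, or EV with T3 replicate 1 or 3 was left out, 1 without EV with T3 replicate 2 and 3 without TRB with T3 replicate 1 or 3. Shares over all genes in these fits are not given here, so the drop cannot be called particular to the members. Over the fits that leave out 1 library, the log2 differences of the 4 members kept their direction, with adjusted p up to 0.109 for LAMA3, 0.147 for LAMC1, 0.0774 for COL27A1 and 0.109 for COL17A1.

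**Figure D5:**
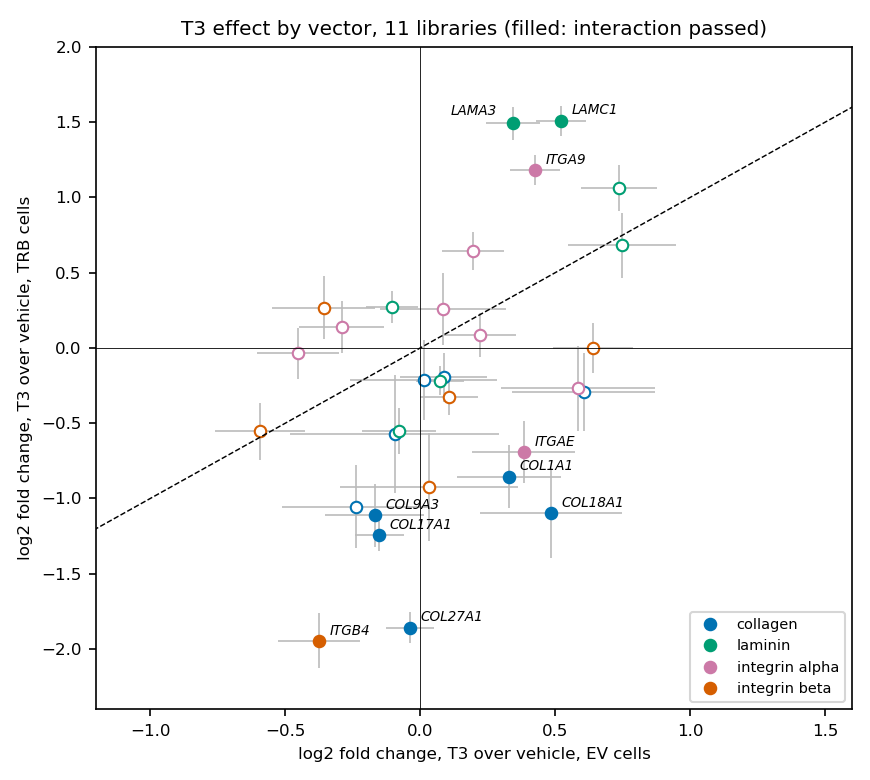
Log2 fold change for T3 over vehicle in EV cells (horizontal axis) and in TRB cells (vertical axis) for the 31 members without TRB with T3 replicate 2, with standard errors and a dashed line of equal response. Filled points are the 10 members whose interaction passed, 3 above the line (LAMA3, LAMC1, ITGA9) and 7 below it.

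Other genes of the matrix and of adhesion were counted for T3 against vehicle in TRB cells, where 8.54% of all genes rose and 6.2% fell with 12 libraries, and 18.1% and 15.2% without replicate 2. Fold changes of these genes, here and in the next paragraph, are from the fit of 12 libraries alone. Of 29 genes of collagen processing 21 were tested, and 5 rose and 1 fell with 12 libraries, 12 and 1 without replicate 2. PLOD2, a lysyl hydroxylase of collagen, stood at 38.6, 51.8 and 45.6 CPM with vehicle and 168, 653 and 181 with T3, a log2 fold change of 2.88 (edgeR adjusted p = 0.00338). P4HA1 (1.94) and P4HA2 (0.99), prolyl hydroxylase subunits, LOXL4 (1.56), a crosslinking oxidase, and MIA3 (1.48), which loads collagen for export, also rose. PCOLCE2 (-0.83), an enhancer of procollagen cleavage, fell. P4HA1 stood at 44.3, 55.2 and 49.1 CPM with vehicle and 128, 302 and 141 with T3. MIA3 stood at 70.1, 71.1 and 75.2 CPM against 126, 359 and 117. Replicate 2 was thus the highest T3 library for PLOD2, P4HA1 and MIA3, which raised their fold changes. For P4HA2 (18.5 CPM) and LOXL4 (6.64 CPM) it was the lowest. No collagen rose in the same comparison.

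Of 12 other matrix glycoproteins 4 were tested, and 2 rose with 12 libraries and 3 without replicate 2. TNC, tenascin C, a ligand of ITGA9, stood at 9.64, 7.05 and 8.63 CPM with vehicle and 695, 244 and 625 with T3, a log2 fold change of 5.95 (SE 0.406, edgeR adjusted p = 8.97e-06). FN1, fibronectin, stood at 10.1, 9.37 and 9.13 CPM against 302, 146 and 274, a log2 fold change of 4.66 (SE 0.279, edgeR adjusted p = 4.01e-06). FN1 also rose in EV cells, by 2.26 (edgeR adjusted p = 0.00367). TNC stood there at 20.2, 20.5 and 23.0 CPM with vehicle and 61.9, 60.3 and 85.1 with T3, and did not pass (adjusted p = 0.0985). Of 30 genes of integrin adhesion and signalling 27 were tested, and 4 rose (DAB2, TNS1, PTK2, PARVA) and 4 fell (FERMT1, FERMT3, ITGB1BP1, TLN2), or 10 and 5 without replicate 2. DAB2, an adaptor for integrin endocytosis, rose by 3.31 in TRB cells (edgeR adjusted p = 1.02e-05) and by 1.71 in EV cells (adjusted p = 0.0125). Of 7 other matrix receptors 6 were tested, and SDC4 alone changed, at -0.77 (edgeR adjusted p = 0.00478), or 3 higher and 2 lower without replicate 2.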

How the data were processed

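Total RNA of SW1736 cells was sequenced in 12 libraries, 3 for each of 4 groups taken from the labels. Per library, the authors deposited a table of raw counts by gene symbol. The submitters' processing notes name CASAVA 1.7, STAR 2.7, HTSeq 0.10, DESeq2 and hg38, without their roles, and the annotation and strand setting are not given in the sources used here. Lines of the count files that name no gene stayed out of all sums and tests, and non-unique alignments were 19.03% to 91.95% of a file. A table of normalized values was not used here.

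Counts were fitted in R 4.3.3 with edgeR 4.0.16 (filterByExpr with minimum count 10 and minimum total 15, trimmed mean of M-values, quasi-likelihood test with 1 coefficient per group). All genes were tested in 5 two-sided contrasts with Benjamini-Hochberg adjustment at 0.05, with 12 libraries (14431 genes) and without TRB with T3 replicate 2 (14825 genes). Standard errors come from the fold change and its F statistic. Exon lengths, positions and GC content come from GENCODE 29 by symbol, and promoters from RefSeq. The test was checked on simulated data with the same spread in every group. That check does not cover a library that stands apart, such as TRB with T3 replicate 2. Alternatives were DESeq2 1.42.0, other size factors, no count filter, GC offsets (spline with 5 degrees of freedom), the compared groups alone, a replicate block and leaving out each library. Members named are those past the threshold in either fit, up to 10 in each direction, and chains that assemble together. The members and lists were chosen with earlier results of these data known. Counts cover all 31 members, of which 1 is not reported here by name or drawn in the plots that label each member. Depth was 3819306 to 13086717 counts per library, which limits precision for members of a few CPM.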

Additional observations from a re-analysis of the deposited data

Results flagged for a closer look

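In 4 of 31 members, against 2.59% of all genes, the response to T3 differed between TRB and EV cells by a test of the difference itself. That test was edgeR's interaction term with 12 libraries, and its calls were fragile. In the 12 fits that leave out 1 library, the call was lost in 9 for LAMA3, 11 for LAMC1, 8 for COL27A1 and 9 for COL17A1. The log2 response in TRB cells minus that in EV cells was 1.05 for LAMA3 (adjusted p = 0.0223) and 0.90 for LAMC1 (adjusted p = 0.0351). It was -2.18 for COL27A1 (edgeR adjusted p = 0.0173) and -1.33 for COL17A1 (adjusted p = 0.0281). Without TRB with T3 replicate 2 the same 4 differences were 1.15, 0.99, -1.82 and -1.09, and each passed. With GC offsets on 12 libraries they were 1.15, 0.85, -1.32 and -0.83.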

How the results depend on the processing

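Shares in parentheses are those of all genes tested in the same fit. The count of members called for T3 in TRB cells was 8 (14.7%). It was 14 with GC offsets on 12 libraries (35.7%), 21 with GC offsets on 11 (55%) and 4 in the compared groups alone (4.52%). Leaving out 1 library gave 5 to 16. For T3 in EV cells the count of 0 (0.229%) became 2 in DESeq2, 1 with GC offsets (2.19%) and 13 with GC offsets on 11 libraries (17.7%). It was 0 to 5 with 1 library left out. For TRB against EV cells with vehicle the count of 0 (0.0208%) became 2 with GC offsets on 11 libraries (1.06%) and 10 in the compared groups alone (11.2%). It was 0 in all 12 fits with 1 library left out. For TRB against EV cells with T3 the count of 5 (6.68%) became 11 with GC offsets on 12 libraries (20.2%) and 18 on 11 (39.9%). It was 0 in the compared groups alone (0.241%) and 4 to 11 with 1 library left out. For the interaction the count of 4 (2.59%) became 1 with no count filter, 8 with GC offsets (11.4%) and 18 with GC offsets on 11 libraries (33.9%). It was 0 to 10 with 1 library left out. Shares for DESeq2, for no count filter and for most fits that leave out 1 library are not given here.

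Reversed directions were those of members that turn on TRB with T3 replicate 2 or on GC content. For T3 in TRB cells, LAMA5 (0.08) became -0.31 with a replicate block and ranged from -0.31 to 0.68 with 1 library left out, with -0.22 without TRB with T3 replicate 1. ITGA3 (0.09) became -0.15 with the block and ranged from -0.27 to 0.64, with -0.17 without TRB with T3 replicate 1. ITGB1 (0.13) became -0.024 with the block, -0.63 with GC offsets and -0.56 with GC offsets on 11 libraries, and ranged from -0.55 without TRB with T3 replicate 2 to 0.39. For TRB against EV cells with T3, LAMB2 (0.04) became -0.17 with the block, and ranged from -0.41 without TRB with T3 replicate 3 to 0.66 without replicate 2, with -0.12 without EV with T3 replicate 2 and -0.20 without TRB with T3 replicate 1. ITGA3 (-0.05) became 0.28 with GC offsets, 0.52 with GC offsets on 11 libraries, and ranged from -0.42 without TRB with T3 replicate 3 to 0.53 without replicate 2, with 0.10 without EV with T3 replicate 3.

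The replicate block gave 8, 0, 0, 5 and 4 members in the 5 comparisons, as without it, but its shares over all genes are not given here. Libraries with the same number had correlations of their deviations from -0.19 to 0.73, over 0.1 in 12 of 18 pairs, and correlated best with their own number in 11 of 18 cases. None of the 4 pairs of groups compared had all 3 correlations over 0.1, so the numbers were not taken to pair the libraries. The replicate 2 libraries did correlate with one another in every pair of groups, at 0.12 to 0.73. Their deviations also ran with GC content in the same direction in every group, with correlations of -0.27 to -0.88. What these libraries share was not tested. Members of a few CPM, such as COL11A2 and COL7A1, rest on few counts per library, so differences there may not be detectable at this depth.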

Other observations

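Ratios between 3 pairs of chains of similar GC content were compared in TRB with T3 replicate 2, where GC-rich members were low, and replicates 1 and 3. ITGB6 (GC 40.1%) and its partner ITGAV (38.2%) had a ratio of levels per kb of 1.47 to 1.61 in EV cells with vehicle and 2.84 to 2.95 with T3. In TRB cells that ratio was 1.17 to 1.32 with vehicle and 1.06, 1.06 and 1.20 with T3, replicate 2 being the second value. LAMB1 (49.5%) to LAMC1 (48.7%) was 1.73 to 1.81 in EV cells with vehicle, 1.23 to 1.38 with T3, 1.90 to 2.06 in TRB cells with vehicle and 0.625, 0.696 and 0.583 with T3. ITGB1 (40.0%) to ITGA6 (42.9%) was 1.27 to 1.32 in EV cells with vehicle, 1.13 to 1.21 with T3, 1.24 to 1.30 in TRB cells with vehicle and 0.852, 1.12 and 0.935 with T3, where replicate 2 lay above both others. These ratios were looked at after the values were seen and carry no test.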
